A study of Mus musculus with 8 samples.

Results

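Of the 8 mouse hearts sequenced in this series, 2 held far more RNA of periostin (Postn) than the rest. As CPM, which are counts scaled to a library total of 1000000, Postn stood at 1631 in the wild-type heart numbered 2 and at 1212 in the knockout heart numbered 2, and between 35.5 and 50.6 CPM in the other 6. The high hearts were those with 500 CPM or more and the low hearts those under 150 CPM, so that each genotype gave 1 high and 3 low hearts and no heart lay in between. The groups were therefore chosen by a measured gene, they hold 2 and 6 hearts, and Postn itself is left out of the results. The study compared hearts with and without Gpihbp1, the protein that anchors lipoprotein lipase to capillaries. The wild-type (WT) hearts were numbered 2, 4, 5 and 6, and the Gpihbp1-/- hearts 1, 2, 3 and 4. All 8 came from male mice on standard chow. The labels give no age and no strain, name no operation, drug or other agent for any heart, and do not say how the Gpihbp1 allele was made or whether equal numbers mark a shared litter or day.

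Periostin is a secreted protein of the extracellular matrix that binds collagen. The healthy adult heart makes little of it. After injury or under pressure load, fibroblasts leave their resting state, take on contractile and matrix-producing features and secrete periostin along with collagens and cross-linking enzymes, while blood monocytes enter the tissue and become macrophages. The working heart muscle around them draws most of its energy from fatty acids and, under load, turns back to some genes of the fetal heart.

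Values are CPM scaled by TMM, a method that corrects for libraries dominated by a few genes. Paired values give wild-type 2 first and knockout 2 second, and the 3 values after "against" are the lowest, the median and the highest of the 6 low-Postn hearts. The log2 difference comes from an edgeR fit with genotype as a covariate and is printed with its standard error (SE). Since the hearts were chosen by a gene of the same table, these differences are descriptions and carry no p-value. A gene is called apart where both high-Postn hearts lay beyond all 6 others and the fitted difference was at least 2-fold. Groups that do not overlap are thus part of the definition. Whatever the fold, 3141 genes lay above all 6 others in both hearts (23.2%) and 2247 below (16.6%). Of 13562 genes tested, 1880 were apart and higher (13.9%) and 1084 apart and lower (7.99%). Scaled to total counts instead, these were 2269 and 624, so that the higher genes made up 78.4% of those apart rather than 63.4%, with the median of all genes 0.195 higher on the log2 scale. By edgeR's adjusted p, given as background only, 2134 genes were higher (15.7%) and 1021 lower (7.53%). The filter on low counts let in 797 genes that the 6 low-Postn hearts alone would not have passed, and 470 of these were apart and higher, so their counts follow in part from the filter.

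Library totals ran from 9065561 to 13492971 counts, and the 2 high-Postn hearts had the deepest libraries. The 50 most abundant genes took 18.6% of the counts in both, against 21.9% to 28.9% elsewhere. Gpihbp1 had 1108 reads in wild-type 2 and 833 to 1951 in the other wild-type hearts, and 0 or 1 in each knockout heart, so each library matched its genotype. Markers of working heart muscle were abundant in every heart: the lowest level of the cardiac actin Actc1 was 8139 CPM and that of the troponin Tnnt2 was 3860.1 CPM. Wild-type 6 stood apart among the low-Postn hearts, with a summed level of red cell and platelet genes of 12355 CPM against at most 1652 in any other heart, and with 972 CPM of the atrial light chain Myl4 against at most 2.33 elsewhere. Genes of lung and liver summed to under 2 CPM in every heart. In bulk tissue, fewer cells of a type and less RNA per cell cannot be told apart.

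Matrix genes of scar tissue were abundant in both high-Postn hearts. Tnc (NCBI gene 21923), tenascin C, a matrix glycoprotein of wound edges, stood at 595 and 579.6 CPM, against 0.791, 1.32 and 1.96 CPM. Spp1 (NCBI gene 20750), osteopontin, which is made by activated macrophages and fibroblasts, stood at 373 and 749.7 CPM, against 0, 0.578 and 1.54 CPM. Both genes were close to unread in the 6 low-Postn hearts and strong in both high ones, with no overlap. Their log2 differences were 8.79 (SE 0.34) and 9.95 (SE 0.64). That of Spp1 was 9.12 without knockout 2 and 10.69 without wild-type 2. Cthrc1 (NCBI gene 68588), a secreted protein that marks matrix-producing fibroblasts, had 74.2 and 80.8 CPM, against 0.0947, 0.265 and 0.569 CPM. Fibronectin, Fn1, had 800.2 and 1101 CPM, against 39.4, 56.6 and 74.4 CPM. The thrombospondin Thbs1 had 149 and 132 CPM, against 4.35, 9.06 and 10.9 CPM. These 5 genes were apart, so none had overlapping groups. In all, 22 of 38 tested matricellular proteins and glycoproteins were apart and higher and 3 apart and lower, with a median log2 difference of 2.16 against -0.03 over all genes tested. Only through the high-Postn hearts did 4 of the 38 pass the filter. The lower share, 7.89%, was near the 7.99% of all genes tested. The lower members were Ltbp4, which tethers latent TGF-beta to elastic fibers, the tenascin Tnxb, and Sparcl1. With total counts 1 member of the list was apart and lower and with TPM 0. Ltbp4 had 154 and 162 CPM, against 323, 568 and 726 CPM. Elastin itself, Eln, lay inside the range of the other hearts in both, at 78.1 and 41.7 CPM, against 32.5, 49.8 and 85.3 CPM.

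Collagens divided by type. Col1a1 (NCBI gene 12842) and Col3a1 (NCBI gene 12825), are the main fibrillar collagens of scar. Col1a1 stood at 1407 and 2879 CPM, against 30.7, 73.2 and 107 CPM. Col3a1 stood at 3552 and 4344 CPM, against 109.6, 164 and 204 CPM. Neither overlapped between the groups, and their log2 differences were 4.80 (SE 0.44) and 4.63 (SE 0.34). Col12a1, which decorates the surface of collagen fibrils, had the largest difference of the family, 5.15 (SE 0.34), with 18.8 and 45.9 CPM, against 0.285, 0.876 and 1.33 CPM. Col5a1 and Col5a2, which set the width of fibrils, and Col8a1, a short-chain collagen of vessel walls, were likewise higher in both hearts, with log2 differences of 3.29, 3.81 and 3.33. Basement membrane collagen differed less. Col4a1 had 698 and 903 CPM, against 302, 517 and 588 CPM, above the other hearts in both but by less than 2-fold in the fit. Its relatives Col4a3 and Col4a4 were lower, at log2 differences of -1.36 (SE 0.48) and -1.75 (SE 0.37). Across the family, 13 of 31 tested members were apart and higher and 5 lower. Scaled to total counts, 2 were apart and lower, and with TPM 0.

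**Figure D1:**
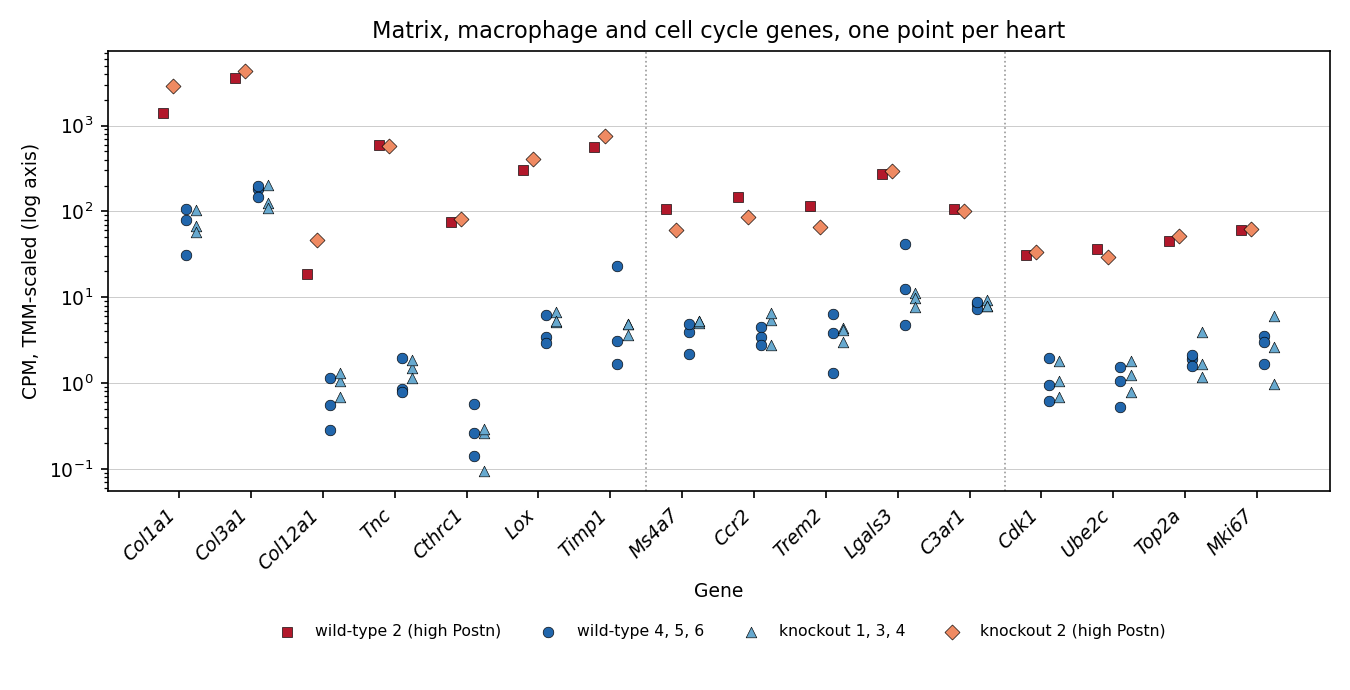
CPM scaled by TMM on a log axis, 1 point per heart, for matrix genes (left), macrophage and monocyte genes (middle) and cell cycle genes (right). Wild-type 2 and knockout 2 lie above all 6 low-Postn hearts for each of the 16 genes, with Tnc at 595 and 579.6 CPM over at most 1.96.

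Enzymes that fold, trim and cross-link collagen were higher too. Lox (NCBI gene 16948), the lysyl oxidase that starts the cross-links, stood at 303 and 403 CPM, against 2.94, 5.21 and 6.64 CPM, a log2 difference of 6.15 (SE 0.28). All 4 of its relatives were apart and higher too, Loxl1, Loxl2, Loxl3 and Loxl4. Loxl2 had 158 and 255 CPM, against 12.8, 17.6 and 27.1 CPM. The prolyl hydroxylase subunit P4ha3 had 5.21 and 12.03 CPM, against 0, 0.139 and 0.284 CPM, the last on 8 reads in the 6 hearts together. The collagen chaperone Serpinh1 had 1073 and 1201 CPM, against 267, 301 and 384 CPM. Of 26 tested genes of this kind, 17 were apart and higher and 0 lower.

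Among the enzymes that break matrix down and their inhibitors, 18 of 42 were apart and higher and 4 lower. The lower share, 9.52%, was near the 7.99% of all genes tested. With total counts 3 were lower and with TPM 1. Timp1 (NCBI gene 21857), an inhibitor of matrix metalloproteinases, stood at 563 and 752 CPM, against 1.67, 4.23 and 22.99 CPM, where the highest of the 6 was wild-type 6 and the next was 4.87 CPM. Timp4, the family member that the heart expresses in the resting state, went the other way, at 4.87 and 6.50 CPM, against 31.7, 55.8 and 82.6 CPM. On the TPM scale, which allows for gene length, Timp1 made up 99.8% of the 2 in both high-Postn hearts and between 17.2% and 59.7% in the others. Adam12, a cell-surface protease of activated fibroblasts, had 32.4 and 45.98 CPM, against 1.12, 1.46 and 1.70 CPM. Adam8, a relative carried by leukocytes, had 43.5 and 85.4 CPM, against 1.68, 2.21 and 4.08 CPM. The groups did not overlap for any of these genes. The gelatinase Mmp2 was higher by less than 2-fold, at a log2 difference of 0.70 (SE 0.21).

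Markers of activated fibroblasts separated from those of resting ones. Of 23 tested markers of the activated state, 19 were apart and higher and 0 lower, with a median log2 difference of 2.13. Only through the high-Postn hearts did 4 of the 23 pass the filter. Meox1, a transcription factor of activated fibroblasts, had 150.2 and 66.9 CPM, against 21.96, 26.4 and 36.9 CPM. The smooth muscle actin Acta2 had 302 and 389.6 CPM, against 97.8, 117 and 228 CPM. Fap and Comp, also on that list, were not apart, at 0.74 (SE 0.33) and -0.07 (SE 0.50). Among 22 markers of resident fibroblasts, 6 were apart and higher and 2 lower, with a median of 0.39. The lower share, 9.09%, was near the 7.99% of all genes tested. The defining resident genes Pdgfra, Tcf21 and Dcn had log2 differences of 0.90 (SE 0.25), 0.80 (SE 0.28) and 0.13 (SE 0.30), that of Tcf21 being 0.17 without wild-type 2. Gsn, an actin-severing protein abundant in resting fibroblasts, was lower, at 528 and 279 CPM, against 1419, 1777 and 2512 CPM. Summed over each list, activated markers stood at 3283 and 3537 CPM, against 381, 522 and 631 CPM. Resident markers stood at 3339 and 2125 CPM, against 3041, 3476 and 4159 CPM, so that the resident sum of wild-type 2 lay among the low-Postn hearts and that of knockout 2 under them. Gsn weighs heavily in that sum, with a median of 1777 CPM in the low-Postn hearts. Of the 22 differences, 13 were above 0 and 9 below, so the sum does not stand for most of the markers. Without wild-type 2, 6 resident markers were apart and lower rather than 2.

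Of the TGF-beta ligands, which drive fibroblast activation, Tgfb2 and Tgfb3 were apart and Tgfb1 was not. Tgfb2 had 41.6 and 57.7 CPM, against 6.45, 6.83 and 9.26 CPM. Tgfb3 had 67.2 and 53.01 CPM, against 21.5, 23.9 and 27.9 CPM, while Tgfb1 had a log2 difference of 0.66 (SE 0.26). Inhba, the activin subunit, had 4.94 and 10.02 CPM, against 0.44, 0.917 and 0.981 CPM. Fstl1, a secreted follistatin-like protein, had 682 and 583 CPM, against 70.7, 77.5 and 133 CPM, the highest of the 6 being wild-type 6. The receptors Tgfbr1 and Tgfbr2 were higher and Acvr2b lower, whereas the signal carriers Smad2, Smad3 and Smad4 had log2 differences of 0.15, 0.17 and -0.39. Bmp6 and Bmp7 were lower, at -1.31 and -2.16, the latter -2.82 without wild-type 2. In all 11 of 34 members were apart and higher and 3 lower, a median of 0.14. The lower share, 8.82%, was near the 7.99% of all genes tested. With total counts 2 members were apart and lower and with TPM 0. Targets of the mechanical regulators YAP, TEAD and SRF were apart and higher in 17 of 34 cases and lower in 0. Tubb2b, a tubulin, had 44.3 and 47.5 CPM, against 2.24, 3.43 and 6.64 CPM. Ccn2, a secreted matrix signal, had 472 and 454 CPM, against 59.8, 81.9 and 99.5 CPM.

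**Figure D2:**
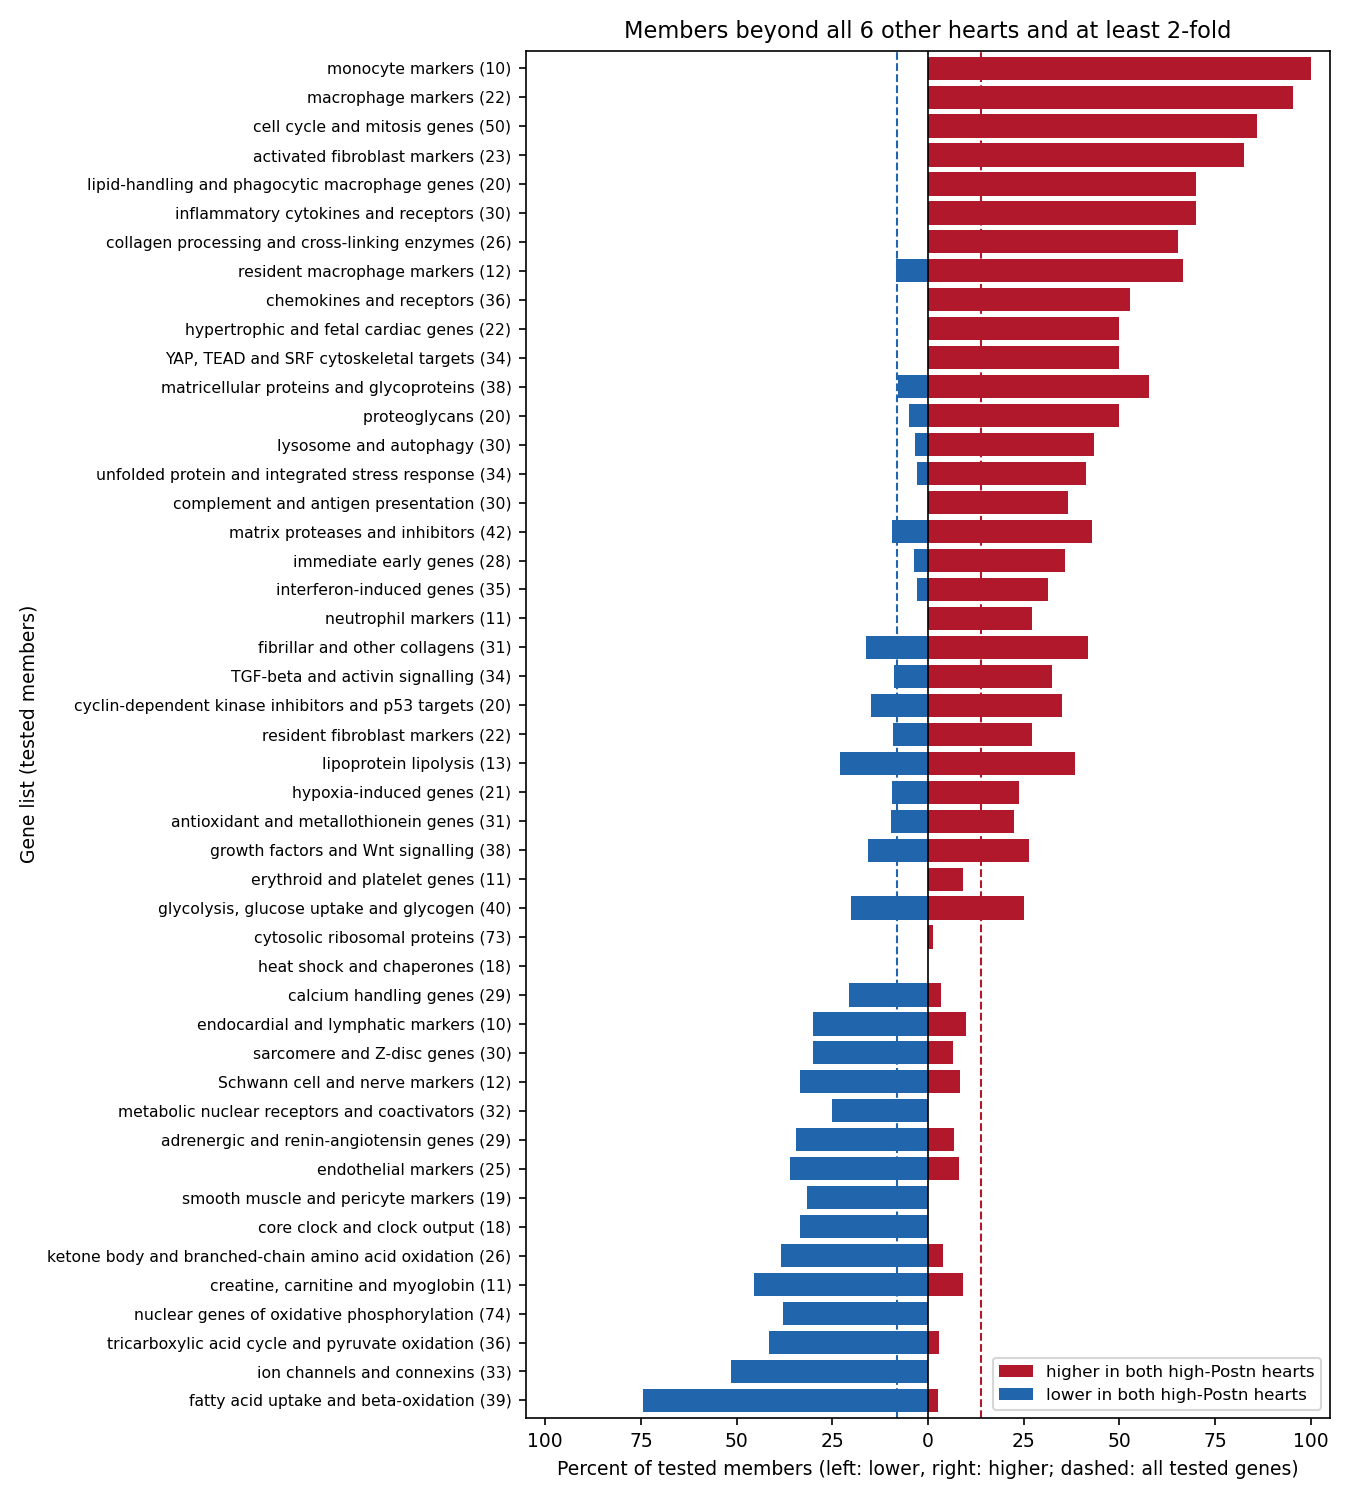
Percent of the tested members of each gene list that were apart in both high-Postn hearts, higher to the right and lower to the left, with the number tested in brackets; lists with fewer than 10 tested members are left out. The dashed lines mark 13.9% and 7.99%, the shares over all 13562 genes; monocyte and macrophage markers lie farthest right and fatty acid genes farthest left.

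Macrophage genes were higher almost without exception. Of 22 macrophage markers, 21 were apart and higher, and the last, Mertk, a receptor for dead cells, had a log2 difference of 0.26 (SE 0.36). The summed level of the list was 6595 and 4432 CPM, against 588, 829.96 and 1130.02 CPM. Cd68, a lysosomal membrane protein of macrophages, stood at 189 and 216 CPM, against 14.4, 17.9 and 19.8 CPM. Ms4a7, a membrane protein of macrophages that arise from monocytes, had 106 and 61.2 CPM, against 2.20, 4.93 and 5.30 CPM. In neither case did the groups overlap. All 10 monocyte markers were apart and higher, 4 of which passed the filter only through the high-Postn hearts, with a sum of 1203 and 1581 CPM, against 68.4, 91.2 and 114 CPM. Ccr2 (NCBI gene 12772), the receptor that brings monocytes out of bone marrow into tissue, stood at 149 and 86.4 CPM, against 2.75, 3.94 and 6.50 CPM, a log2 difference of 4.80 (SE 0.33), or 4.13 without wild-type 2.

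Of 12 markers of the macrophages that live in the uninjured heart, 8 were apart and higher and 1 lower, with a median log2 difference of 1.52. Their sum was 809 and 776 CPM, against 360.4, 398 and 454 CPM. The mannose receptor Mrc1 had 145 and 141 CPM, against 22.4, 28.9 and 30.5 CPM. The folate receptor Folr2 had 51.6 and 51.8 CPM, against 14.3, 18.9 and 22.99 CPM. Lyve1 and Cd163, 2 other receptors of these cells, were not apart, at log2 differences of -0.37 (SE 0.22) and 0.20 (SE 0.30). Timd4, the marker of long-lived resident macrophages, was the 1 lower member, at 0.823 and 1.89 CPM, against 2.07, 3.06 and 3.78 CPM. Its log2 difference of -1.12 (SE 0.42) was -0.49 without wild-type 2, and with total counts or TPM 0 members of the list were apart and lower. Genes of lipid uptake and phagocytosis were higher in 14 of 20 cases, and 4 of the 20 passed the filter only through the high-Postn hearts. Trem2 (NCBI gene 83433), a lipid-sensing receptor, had 115 and 66.3 CPM, against 1.32, 3.98 and 6.45 CPM. The galectin Lgals3 had 273 and 298 CPM, against 4.75, 10.5 and 41.6 CPM, the highest of the 6 being wild-type 6. Cd5l, secreted by tissue macrophages, was read at 4.25 and 3.84 CPM and at 0 in all 6 other hearts, which makes it at least 82.2-fold higher if those 6 together are given 3 counts. Arg1, the arginase of wound-healing macrophages and a gene outside the lists, stood at 14.5 and 111 CPM and had 2 reads in the 6 other hearts together. In lysosomes, 13 of 30 genes were apart and higher, among them the protease Lgmn at 423 and 482 CPM, against 52.8, 74.6 and 96.998 CPM.

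Other leukocytes were examined by their own markers. Of 9 tested markers of T and NK cells 0 were apart, with a list sum of 18.3 and 13.2 CPM, against 8.24, 12.7 and 16.7 CPM. Defining genes of T cells such as Cd3e and Trac were too low to test. For neutrophils 3 of 11 tested markers were apart and higher, and 7 of the 11 passed the filter only through the high-Postn hearts. The growth factor receptor Csf3r had 31.8 and 28.1 CPM, against 3.50, 5.82 and 14.1 CPM. The granule gene S100a8 had 3.29 and 29.4 CPM, against 0.703, 5.34 and 25.2 CPM, so that knockout 2 lay above the others and wild-type 2 among them. The list sum was 49.4 and 129 CPM, against 8.79, 24.4 and 99.95 CPM. Without wild-type 2, 8 neutrophil markers were apart and higher, and without knockout 3 there were 5. Of 9 tested dendritic and mast cell markers, 1 was apart and higher and 3 lower, and with TPM 0 were lower. Without knockout 2, 7 of 13 were apart and higher and 2 lower. The list sum was 80.9 and 30.0 CPM, against 39.0, 50.2 and 84.1 CPM. The mast cell genes Cpa3 and Tpsb2 were lower, on 1 and 12 reads in both high-Postn hearts together.

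Signals that recruit and drive these cells were higher as well. Of 36 tested chemokines and receptors, 19 were apart and higher and 0 lower. Of these 36, 10 passed the filter only through the high-Postn hearts. Ccl2 and Ccl7, which attract monocytes through Ccr2, were both apart. Ccl2 had 63.1 and 121 CPM, against 2.17, 5.50 and 7.99 CPM. Ccl7 had 71.96 and 115 CPM, against 2.81, 4.91 and 7.15 CPM. Cxcl5, a neutrophil attractant, had 11.9 and 18.8 CPM, against 0.176, 0.341 and 0.797 CPM. In each the 2 hearts lay above the others, and knockout 2 lay above wild-type 2. Cxcl12, which keeps leukocytes in place, and Ccl24 were not apart, at log2 differences of -0.83 (SE 0.44) and -1.20 (SE 0.48). Of 30 cytokines and receptors 21 were apart and higher, but 10 of the 30 passed the filter only through the high-Postn hearts. With a filter by genotype group it was 13 of 21, with a median log2 difference of 1.20 rather than 1.98. Among the higher was the alarmin Il33 at 21.7 and 29.7 CPM, against 2.55, 3.98 and 5.42 CPM. Il6 had 5.28 and 5.40 CPM, against 0, 0.0475 and 0.266 CPM, the last on 5 reads in the 6 hearts together. Tnf and Nos2 were not apart, at 0.95 (SE 0.44) and -1.16 (SE 0.54). Interferon-induced genes were higher in 11 of 35 cases and lower in 1, Gbp4. With total counts or TPM 0 of them were apart and lower. Oas3, which senses double-stranded RNA, had 15.8 and 22.8 CPM, against 0.527, 1.46 and 2.92 CPM.

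Genes of cell division were higher in both hearts in most cases. Of 50, 43 were apart and higher and 0 lower, 10 of the 50 having passed the filter only through the high-Postn hearts, with a median log2 difference of 3.29. Cdk1 (NCBI gene 12534), the kinase that starts mitosis, stood at 31.4 and 33.8 CPM, against 0.615, 1.01 and 1.96 CPM. Mki67 (NCBI gene 17345), carried by dividing cells only, stood at 61.3 and 61.5 CPM, against 0.985, 2.82 and 6.06 CPM. Both hearts had nearly equal levels of each gene, and the other 6 had at most 1.96 and 6.06 CPM. The log2 differences were 4.81 (SE 0.34) and 4.35 (SE 0.42). Top2a, which untangles chromosomes, had 45.4 and 51.3 CPM, against 1.18, 1.79 and 3.98 CPM. The ubiquitin carrier Ube2c had 36.5 and 29.7 CPM, against 0.527, 1.14 and 1.80 CPM. Cdc20, the activator that lets sister chromosomes part, had 20.1 and 21.5 CPM, against 0.394, 1.78 and 2.85 CPM. All 5 were apart, so none overlapped between the groups. The replication helicase subunit Mcm5 had a log2 difference of 2.66 (SE 0.24) and the replication clamp Pcna 1.17 (SE 0.19). The D-type cyclins Ccnd1, Ccnd2 and Ccnd3, which act before division, were not apart, at 0.24, -0.60 and 0.43. With a mean of at least 10 CPM required, 21 genes of the list were tested and 14 of them were apart and higher. Which cells divided was not tested.

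Promoters of 4 of these genes, picked because they hold both motifs, are shown because the group moved together and because cell cycle promoters are known for 2 short motifs, the CCAAT box and the cell cycle homology region TTTGAA. The stretches below are the 120 bases before the annotated start, written 5′ to 3′ on the strand of the gene, from RefSeq on build GRCm38.p6. Capitals mark each match to either motif, read on either strand.
Cdk1 (chr10:69352913-69353032, minus strand): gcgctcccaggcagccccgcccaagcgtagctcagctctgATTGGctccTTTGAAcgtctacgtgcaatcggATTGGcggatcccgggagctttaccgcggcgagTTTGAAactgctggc
Cdc20 (chr4:118437344-118437463, minus strand): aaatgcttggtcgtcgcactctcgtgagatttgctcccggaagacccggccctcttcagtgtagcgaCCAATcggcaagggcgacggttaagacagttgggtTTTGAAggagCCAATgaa
Top2a (chr11:99024190-99024309, minus strand): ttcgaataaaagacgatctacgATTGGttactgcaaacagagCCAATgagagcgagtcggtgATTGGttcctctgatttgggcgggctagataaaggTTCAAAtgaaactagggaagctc
Ube2c (chr2:164769809-164769928, plus strand): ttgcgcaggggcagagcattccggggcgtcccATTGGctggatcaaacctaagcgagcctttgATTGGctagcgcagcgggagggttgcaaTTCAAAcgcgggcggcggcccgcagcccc
The search took the 250 bases before the start. CCAAT was found there in 28 of the 35 promoters matched among the 43 higher cell cycle genes (80%). It was found in 36.4% of 10783 promoters of all tested genes and in 34.5% of 27025 promoters in the table. TTTGAA was found in 10 of 35 (28.6%) against 10.8% of tested genes, and each of those 10 also held CCAAT, a pair found in 4.18% of tested genes. Among the 24 promoters matched for the 29 lower fatty acid genes, CCAAT was found in 8 (33.3%) and TTTGAA in 3 (12.5%). TNAAGGTCA, the element of the estrogen-related receptors, searched on both strands, was found in 0 of them, against 0.631% of tested genes. It was found in 1 of 21 promoters of lower oxidative phosphorylation genes (4.76%) and 1 of 11 of lower channel genes (9.09%). At so low a share, counts of 0 or 1 in such small sets can show little. A match is a description of the letters and not of a factor bound there.

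Heart muscle genes of the fetal and hypertrophic program were higher in part. Of 22 tested, 11 were apart and higher and 0 lower. Ankrd1 (NCBI gene 107765), a stretch-responsive protein of the sarcomere and nucleus, stood at 3862 and 2903 CPM, against 471, 905 and 1601 CPM. Acta1, the skeletal actin of the fetal heart, stood at 1381 and 2185 CPM, against 249.8, 349.9 and 693 CPM. Nppb, the natriuretic peptide BNP, had 2025 and 1311 CPM, against 317, 502 and 738 CPM. All 3 lay above the other hearts in both. Nppa, the atrial natriuretic peptide, was not apart at 3085 and 4427 CPM, against 158, 232 and 3254 CPM, since the highest of the 6 was wild-type 6 and the next lay at 299 CPM. The fetal myosin Myh7 lay inside the range of the others, at 119.6 and 149 CPM, against 75.3, 147 and 401 CPM. Gdf15, a secreted stress signal, had 48.9 and 44.9 CPM, against 2.17, 2.83 and 3.50 CPM. Sprr1a, a stress-induced protein outside the lists, had 247 and 285 CPM, against 0, 0.137 and 0.981 CPM. Neither overlapped between the groups.

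Of 30 genes of the adult contractile apparatus, 9 were apart and lower and 2 apart and higher, with a median log2 difference of -0.81. With total counts 7 were lower and 5 higher, and with TPM 5 were lower and 5 higher, with medians of -0.60 and -0.52. Myh6 (NCBI gene 17888), the adult myosin heavy chain, stood at 6799 and 8729 CPM, against 16234, 24500.4 and 34054 CPM, a log2 difference of -1.67 (SE 0.48). On the TPM scale knockout 2 lay inside the range of the others for Myh6, at 2243 against a lowest value of 1779. Tcap, which anchors titin at the Z-disc, had 523 and 492 CPM, against 1104, 2024 and 3790.2 CPM. The ventricular light chain Myl2 had 4513 and 2889 CPM, against 7647, 10580.1 and 31015 CPM, the highest of the 6 being wild-type 6. The higher members were Xirp2, a repair protein of the cell junctions, and Ankrd2. Actc1, Tnnt2 and Ttn were not apart, at -0.06 (SE 0.45), -0.70 (SE 0.46) and -0.90 (SE 0.39). Among genes outside the lists, Myh7b, a myosin whose gene hosts a muscle microRNA, had 17.1 and 18.2 CPM, against 60.4, 216 and 318 CPM.

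Calcium handling and membrane channels showed the same direction. The calcium pump Atp2a2 stood at 3953 and 4852 CPM, against 6257, 10962 and 18553 CPM. Its brake Pln stood at 2730.4 and 2560.01 CPM, against 3314, 6001 and 6935 CPM. On the TPM scale both high-Postn hearts lay inside the range of the others for these genes. Atp2a2 had 1148 and 1776 TPM against a lowest value of 1087, and Pln 1533 and 1813 against 1456. Hrc, which buffers calcium inside the store, had 179.6 and 194 CPM, against 699, 1120.04 and 1362 CPM, a log2 difference of -2.47 (SE 0.42). Of 29 calcium handling genes 6 were apart and lower and 1 higher. Of 33 ion channels and connexins 17 were apart and lower and 0 higher. Kcnv2 (NCBI gene 240595), a modifier of voltage-gated potassium channels, was nearly unread in both hearts, at 0.892 and 1.82 CPM, against 15.8, 21.2 and 31.6 CPM. Kcnip2, the partner of the channels of the fast outward potassium current, had 69.7 and 51.1 CPM, against 168, 331 and 419.6 CPM. The sodium channel subunit Scn4b had 13.9 and 9.76 CPM, against 24.8, 45.6 and 124 CPM, the highest of the 6 being wild-type 5. All 3 lay below the other hearts in both. The main connexin Gja1 was not apart, at 0.29 (SE 0.35). Of 29 genes of adrenaline and angiotensin signalling 10 were apart and lower and 2 higher. The receptor Adra1a had 6.79 and 6.50 CPM, against 14.3, 27.5 and 51.6 CPM. Adrb1, the main beta-adrenergic receptor of heart muscle, had -0.60 (SE 0.46).

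**Figure D3:**
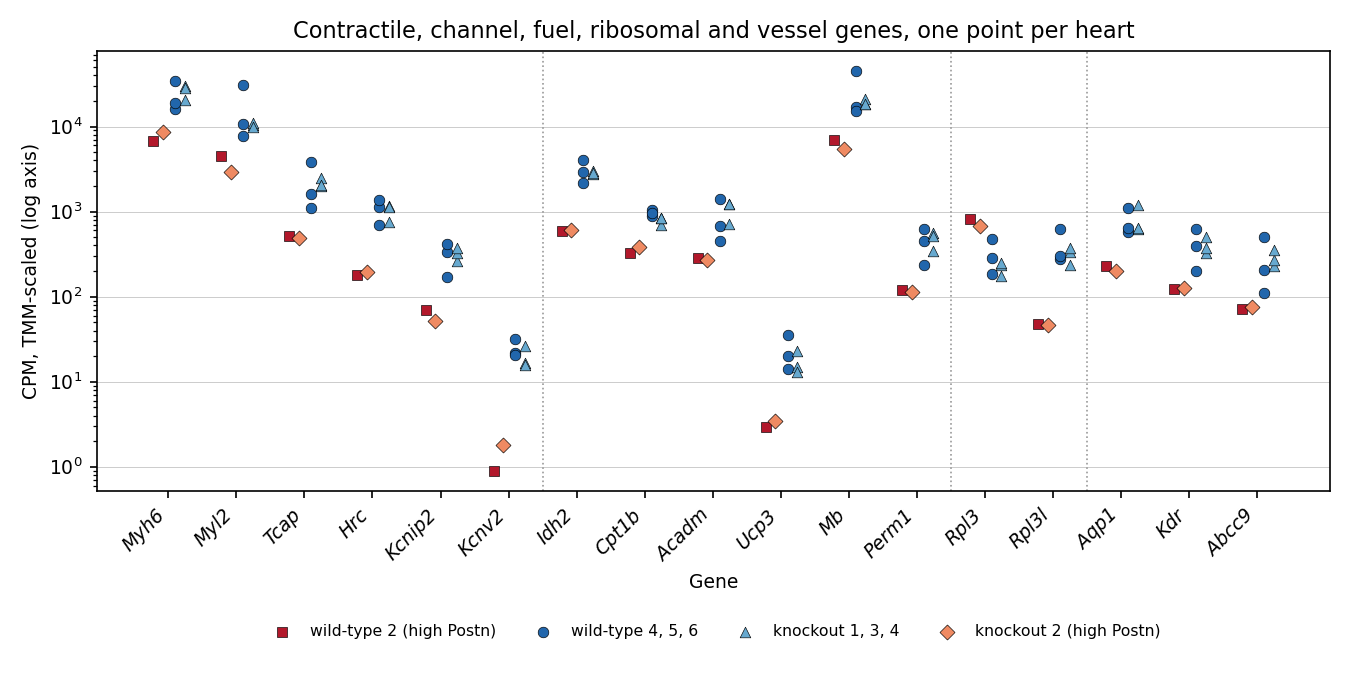
CPM scaled by TMM on a log axis, 1 point per heart, for genes of contraction and channels, of fuel use, of the ribosome and of vessels, from left to right. Wild-type 2 and knockout 2 lie below all 6 low-Postn hearts for each gene except Rpl3, where they lie above, at 821 and 677 CPM over at most 475.

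Fatty acid genes formed the group most often lower. Of 39 tested genes of fatty acid uptake and beta-oxidation, 29 were apart and lower and 1 higher, with a median log2 difference of -1.30. Cpt1b (NCBI gene 12895), which admits fatty acids to mitochondria, stood at 326 and 383 CPM, against 695, 874 and 1035 CPM. Acadm, which starts the oxidation of medium-chain fatty acids, had 284 and 268 CPM, against 450.2, 968 and 1401 CPM. Hadha, a subunit of the trifunctional protein, had 336 and 368 CPM, against 589.9, 1195 and 1599.98 CPM. All 3 lay below the other hearts in both. On the TPM scale, knockout 2 lay inside the range of the low-Postn hearts for Cpt1b and Acadm. It had 216 and 221 TPM, against lowest values of 199 and 203. Ucp3, a mitochondrial carrier of muscle, had 2.95 and 3.45 CPM, against 12.98, 17.5 and 35.6 CPM, while its relative Ucp2, a carrier of immune cells, was the 1 higher member, at 250.5 and 203 CPM, against 46.7, 52.1 and 71.1 CPM. The transporter Cd36 lay below the others in both hearts but by less than 2-fold in the fit, with 686 and 848 CPM, against 1119, 1510.3 and 1845 CPM. Of 32 nuclear receptors and coactivators that govern these genes, 8 were apart and lower and 0 higher. Ppara, the fatty acid sensor, had 30.2 and 21.8 CPM, against 33.4, 63.8 and 136 CPM. On the TPM scale both hearts lay inside the range of the others for Ppara and Cd36, whose lowest values there were 4.26 and 219. Perm1, a coactivator of muscle mitochondria, had 119 and 112 CPM, against 238, 485 and 628 CPM. The coactivator Ppargc1a was not apart, at 27.7 and 30.2 CPM, against 27.3, 65.98 and 127 CPM.

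Further along the same route, genes of the tricarboxylic acid cycle and pyruvate oxidation were apart and lower in 15 of 36 cases and higher in 1, Pdk3. Idh2 (NCBI gene 269951), the mitochondrial isocitrate dehydrogenase that supplies NADPH, stood at 598 and 604 CPM, against 2175, 2867 and 4079 CPM, a log2 difference of -2.30 (SE 0.42). Nuclear genes of oxidative phosphorylation were apart and lower in 28 of 74 cases and higher in 0, and 72 of 74 differences were below 0, with a median of -1.12. This count depended on the library and the scaling: wild-type 6 held a list sum of 188857 CPM against at most 75316.6 elsewhere, and without it 10 genes were apart and lower, with a median of -0.72. Without wild-type 2 there were 46 and without wild-type 5 there were 55. With total counts or with TPM there were 7, with medians of -0.85 and -0.73. Likewise the count of lower genes became 10 and 6 for channels, 5 and 1 for the tricarboxylic acid cycle, 3 and 2 for calcium handling, 6 and 2 for adrenergic and angiotensin genes and 5 and 2 for nuclear receptors under total counts and TPM. For fatty acid genes it was 12 with TPM. The medians of these lists were below 0 under both. Branched-chain amino acid and ketone oxidation was lower in 10 of 26 cases, or 7 with total counts and 2 with TPM, such as Bckdha at 136 and 119.8 CPM, against 376, 433 and 626 CPM, while Bcat1, an aminotransferase of growing cells, was higher, at 22.2 and 29.9 CPM, against 0.758, 0.965 and 1.40 CPM.

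Among glucose genes, isoforms of muscle and of other cells differed in opposite directions. Of 40, 10 were apart and higher and 8 lower, and the median was -0.03, or 0.19 with total counts. The muscle isoforms Slc2a4, Pfkm, Eno3, Pgam2 and Pygm were apart and lower, and the widely expressed isoforms Slc2a1, Pfkp, Eno1, Pgam1 and Pygl apart and higher. On the TPM scale knockout 2 lay inside the range of the others for Pygm, at 337 against a lowest value of 260. Slc2a4, the insulin-responsive glucose transporter, had 182 and 226 CPM, against 279, 611 and 686 CPM. Slc2a1, the transporter of most other cells, had 61.1 and 79.5 CPM, against 14.996, 27.3 and 35.3 CPM. On the TPM scale Slc2a1 made up 23.7% and 26.02% of the 2 transporters, against at most 5.62%. Eno1 made up 39.2% and 53.96% of the 2 enolases, against at most 13.1%. Slc16a3, which exports lactate, had 38.1 and 71.3 CPM, against 1.99, 2.87 and 5.12 CPM. Myoglobin, Mb, the oxygen store of muscle, had 6918 and 5419 CPM, against 15310.4, 18628 and 45342 CPM, the highest of the 6 being wild-type 6.

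The ribosome showed a like pair. Rpl3l, the muscle form of ribosomal protein L3, stood at 47.5 and 46.96 CPM, against 234, 319.8 and 621 CPM. Rpl3, the form of most other cells, stood at 821 and 677 CPM, against 173, 241 and 475 CPM. On the TPM scale Rpl3 made up 94.3% and 93.4% of the 2, against 31.5% to 49.98%. Rpl3 was the 1 gene of 73 cytosolic ribosomal proteins that was apart, although 70 differences were above 0, with a median of 0.51. Without wild-type 6, which held the highest sum of this list, 31 were apart and higher, and with TPM 21. Genes of the circadian clock were lower in 6 of 18 cases, among them the output factor Hlf at 3.02 and 4.36 CPM, against 8.16, 20.1 and 29.3 CPM, while the activators Clock and Arntl had 0.15 (SE 0.21) and 0.16 (SE 0.41). With total counts 2 clock genes were apart and lower and with TPM 0. The labels do not give the hour of collection, so its part in these levels was not tested.

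Endothelial markers were lower in 9 of 25 cases, with a median log2 difference of -1.004. Kdr, the main receptor for vascular growth factor, had 122 and 127 CPM, against 200.5, 385 and 633 CPM. On the TPM scale Kdr lay inside the range of the others in both, at 25.5 and 33.4 against a lowest value of 19.1. The water channel Aqp1 had 227 and 202 CPM, against 583, 638 and 1212 CPM. Sele and Selp, the selectins that capture leukocytes on inflamed vessels, were higher, at log2 differences of 2.71 (SE 0.42) and 2.52 (SE 0.49). Pecam1 and Cdh5, carried by all endothelium, were not apart, at -0.90 (SE 0.39) and -1.16 (SE 0.49). The summed list stood at 1547 and 1809 CPM, against 2992, 3163 and 5896 CPM. With total counts 3 and with TPM 2 endothelial markers were apart and lower, and without knockout 2 there were 14. In pericytes and smooth muscle 6 of 19 markers were lower and 0 higher, such as Abcc9 at 72.4 and 74.8 CPM, against 109.9, 252 and 506 CPM. On the TPM scale Abcc9 lay inside the range of the others in both, at 12 and 15.7 against a lowest value of 8.38. The sum of the list ran the other way, at 5845 and 6191 CPM, against 3434, 4601 and 5352 CPM, above the other hearts in both. With total counts or TPM 1 was lower and 1 higher, and without wild-type 6 there were 10 lower.

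In lipoprotein lipolysis, the pathway in which Gpihbp1 acts, 5 of 13 genes were apart and higher and 3 lower, with a median log2 difference of 0.06. With TPM 1 was lower. Lpl, the lipase that Gpihbp1 carries, stood at 2435 and 1545 CPM, against 3668, 4753 and 6754 CPM. Its inhibitor Angptl4 had 55.4 and 85.3 CPM, against 1.97, 2.87 and 21.4 CPM, where wild-type 6 was the highest of the 6. Vldlr, a receptor for triglyceride-rich lipoproteins, had 91.99 and 89.4 CPM, against 171, 231 and 357 CPM. Apoe, a ligand of such receptors, had 2274 and 839.9 CPM, against 241, 465 and 513 CPM. The log2 difference of Apoe, 1.82 (SE 0.41), was 0.95 without wild-type 2. Lpl and Vldlr lay lower, and Angptl4 and Apoe higher, in both hearts. On the TPM scale Lpl in wild-type 2, at 758, and Vldlr in knockout 2, at 17.2, lay inside the range of the others.

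Stress genes were higher in part. Hmox1 (NCBI gene 15368), which breaks down heme, stood at 209 and 329 CPM, against 7.15, 10.4 and 14.02 CPM, a log2 difference of 4.67 (SE 0.22). The metallothionein Mt2 had 136 and 169 CPM, against 5.71, 14.1 and 39.1 CPM. Of 31 antioxidant and metallothionein genes, 7 were apart and higher (22.6%) and 3 lower (9.68%), with a median log2 difference of 0.41. Over all tested genes these shares were 13.9% and 7.99%. With total counts 2 of this list were apart and lower and with TPM 1. Of 34 genes of the unfolded protein and integrated stress responses, 14 were apart and higher and 1, Herpud1, lower. With total counts or TPM 0 of the 34 were apart and lower. The higher members included the disulfide isomerases Pdia3, Pdia4 and Pdia6, and enzymes of serine, proline and folate metabolism such as Psat1 at 24.3 and 28.03 CPM, against 2.94, 3.56 and 4.13 CPM. The regulators Atf4 and Ddit3 and the chaperone Hspa5 were not apart, at 0.26 (SE 0.26), -0.61 (SE 0.34) and 0.17 (SE 0.35). Of 18 heat shock genes 0 were apart, though 3 were higher with total counts and 3 with TPM. Immediate early genes were apart and higher in 10 of 28 cases, among them Myc at 24.4 and 23.8 CPM, against 1.68, 2.62 and 3.22 CPM, whereas Fosb, Egr1 and Arc were not, at -1.21 (SE 0.79), -0.58 (SE 0.58) and -0.30 (SE 0.26).

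The high-Postn hearts were also compared with each other. Each was set against the 3 low-Postn hearts of its own genotype, so the comparisons share no library. Wild-type 2 had 1690 genes at least 2-fold higher and knockout 2 had 1716, and 1402 were in both, which is 83.0% of the first list and 81.7% of the second. Lower genes numbered 1277 and 971, with 772 in both, or 60.5% and 79.5%. In opposite directions there were 2, Dkk3 and a predicted gene. Across genes, which are not independent replicates, the differences had a Pearson r of 0.916 and a Spearman rho of 0.894. The median difference between wild-type 2 and knockout 2 was 0.230 in absolute log2 units, which lay between the 0.165 and 0.642 found for pairs of low-Postn hearts and below the 0.511 to 0.732 found for every pair of a high and a low heart. An interaction term asked for each gene whether the high-to-low difference depended on genotype. By edgeR's quasi-likelihood test with Benjamini-Hochberg adjustment 0 of 13562 genes passed (0%), the smallest adjusted p was 0.99998, and 82 genes had an unadjusted p under 0.05. DESeq2 called 0 as well, with 66. With 1 high heart in each genotype, such a count does not show that the hearts were alike.

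**Figure D4:**
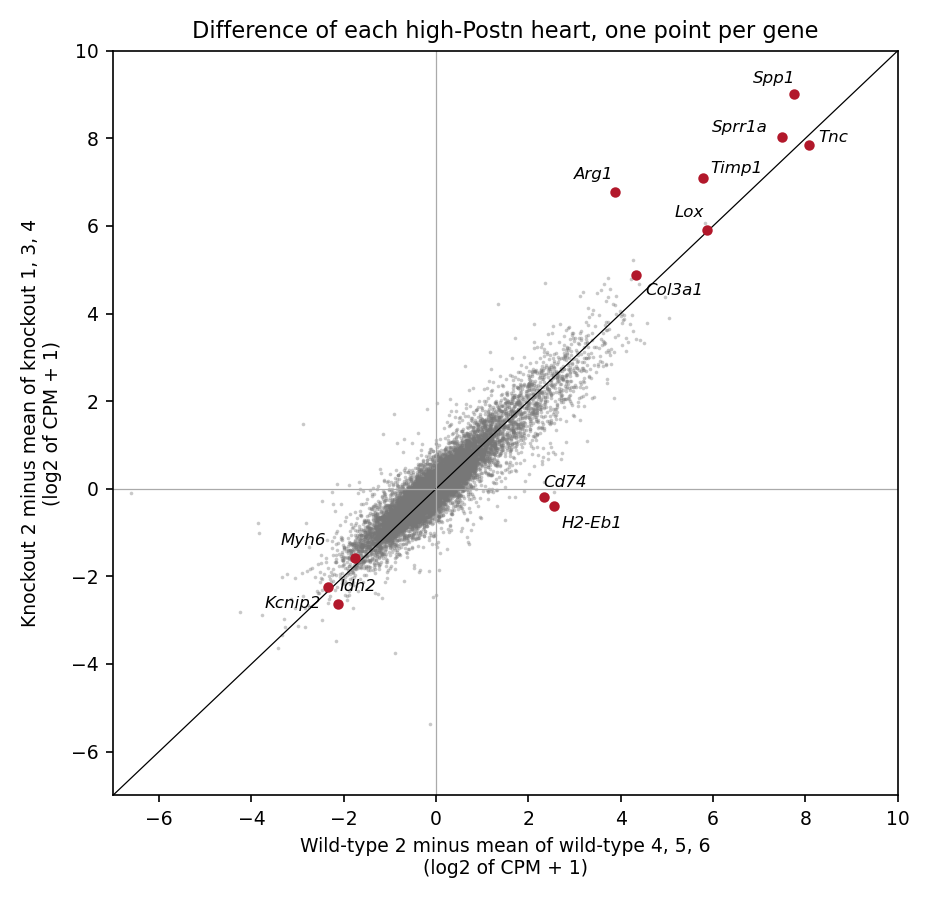
Difference of each high-Postn heart from the mean of the 3 low-Postn hearts of its genotype, in log2 of CPM plus 1, 1 point per tested gene, with wild-type 2 on the horizontal and knockout 2 on the vertical axis. Points follow the diagonal line of equal differences (Pearson r 0.916), and Cd74 and H2-Eb1 lie far to the right of it.

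Genes of antigen presentation by MHC class II, picked out after their values were seen, differed in level between wild-type 2 and knockout 2. H2-Eb1, H2-Ab1 and H2-Aa, its chains, stood at 494, 556 and 839 CPM in wild-type 2, and at 59.5, 77.5 and 106 CPM in knockout 2. The other 6 hearts had 53.7 to 110.3, 57.9 to 129 and 74.98 to 198 CPM, so wild-type 2 lay above them and knockout 2 among them. Cd74, the chaperone of these chains, had 1326 and 225 CPM, against 187, 260.3 and 359 CPM. Ciita, their master regulator, had 30.1 and 6.05 CPM, against 2.84, 4.80 and 5.69 CPM. The interaction test of edgeR, on 1 high-Postn heart a genotype, gave an adjusted p of 0.99998 for H2-Eb1, Cd74 and Ciita alike, so a difference by genotype was not shown. Macrophage markers were also higher in wild-type 2, with list sums of 6595 and 4432 CPM, whereas monocyte sums were 1203 and 1581 CPM. Chil3, a lectin of monocytes, had 10.98 and 62.6 CPM, against 0.0949, 0.705 and 3.74 CPM. The part of these marker levels in the difference was not tested. Of the 1880 higher genes 93.0% differed by less than 2-fold between wild-type 2 and knockout 2, 54 were at least 2-fold higher in knockout 2 and 77 in wild-type 2.

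**Figure D5:**
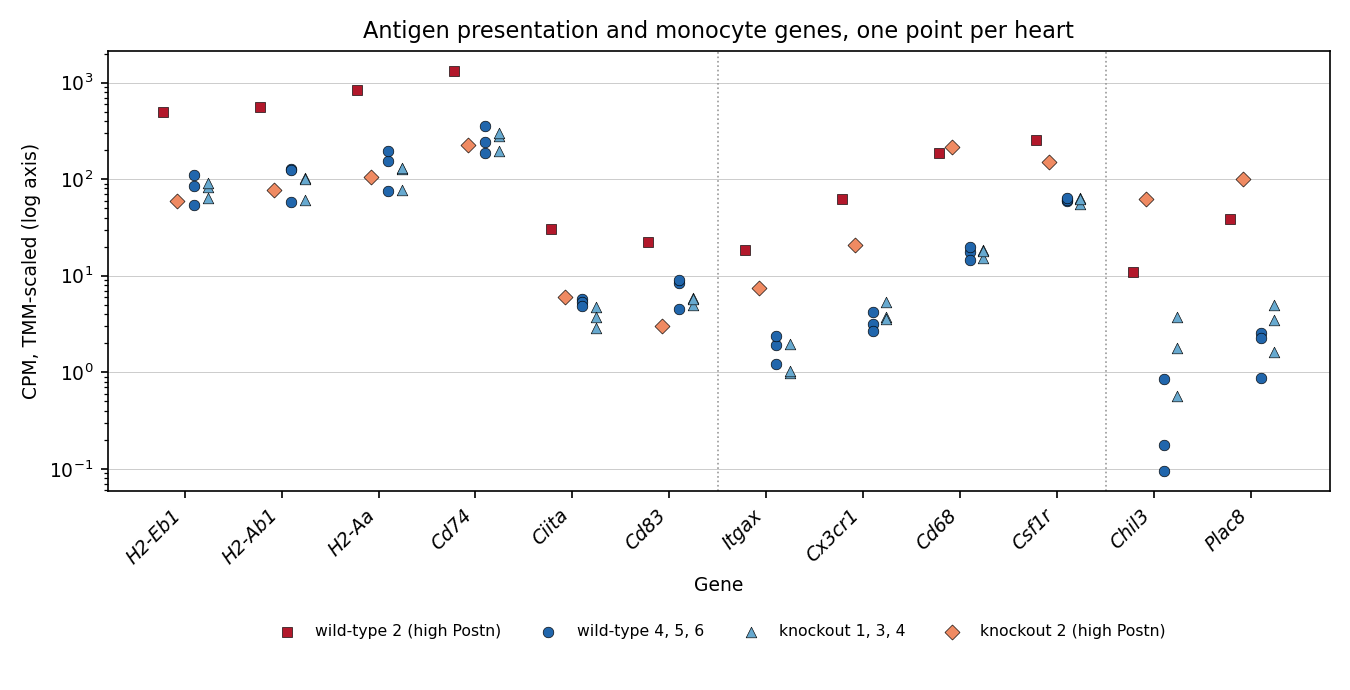
CPM scaled by TMM on a log axis, 1 point per heart, for genes of antigen presentation by MHC class II (left), macrophages (middle) and monocytes (right). Wild-type 2 lies above all other hearts for the MHC class II genes, at 1326 CPM of Cd74 against 225 in knockout 2, while knockout 2 is the higher heart for Chil3 and Plac8.

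Genotype, which comes from the labels and not from Postn, was tested with the Postn class as a covariate. By edgeR's quasi-likelihood test 5 of 13562 genes passed (0.0369%), Gpihbp1, Arc, Psca, Fbp2 and H3c14, and 375 had an unadjusted p under 0.05. Of the 5, 0 were among the genes apart between high- and low-Postn hearts. Fbp2, the muscle form of fructose bisphosphatase, stood at 12.8, 32.8, 33.7 and 60.7 CPM in wild-type 2, 4, 5 and 6, and at 6.29, 2.15, 8.37 and 6.06 CPM in knockout 1, 2, 3 and 4. Its log2 difference was -2.60 (SE 0.26, edgeR adjusted p = 0.00438), and in each genotype the high-Postn heart was the lowest. In the 6 low-Postn hearts alone 3 genes passed, Gpihbp1, Arc and Psca, and the adjusted p of Fbp2 was 0.0732 by edgeR. It was 0.0618 without wild-type 2 and 0.0622 without knockout 2.

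Most of the other groups held members of both directions. Of 20 proteoglycans and related genes 10 were apart and higher and 1 lower, and 4 of the 20 passed the filter only through the high-Postn hearts. With total counts or TPM 0 proteoglycans were apart and lower. Vcan, a large proteoglycan of loose matrix, had 73.8 and 93.98 CPM, against 9.97, 11.4 and 17.6 CPM. Of 20 kinase inhibitors and p53 targets 7 were higher and 3 lower, the latter becoming 2 with total counts and 1 with TPM. Cdkn1a, the inhibitor p21, had 95.8 and 98.1 CPM, against 23.4, 40.2 and 72.6 CPM, while Cdkn1c, its relative p57, was lower at a log2 difference of -2.37 (SE 0.46). Of 38 genes of growth factors and Wnt signalling 10 were higher and 6 lower, the latter becoming 3 with total counts and 2 with TPM. Wif1, which binds and blocks Wnt proteins, had 0.617 and 0.26 CPM, against 0.664, 2.96 and 3.81 CPM, and lay below the others in both hearts. Of 30 complement and antigen presentation genes 11 were higher and 0 lower, among them the complement receptor C3ar1 at 107 and 100.2 CPM, against 7.21, 8.21 and 9.39 CPM. Of 12 markers of Schwann cells and nerve 4 were lower and 1 higher, and with total counts 1 and with TPM 0 were lower.

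Outside the lists, further genes were higher or lower in both hearts. Fcgr4, an antibody receptor, had 49.9 and 34.9 CPM, against 0.967, 2.18 and 3.08 CPM. The neuronal tubulin Tubb3 had 45.96 and 58.7 CPM, against 1.32, 1.79 and 3.36 CPM. Racgap1, needed to split dividing cells, had 25.6 and 27.3 CPM, against 1.06, 1.41 and 2.52 CPM. Star, which delivers cholesterol to mitochondria, lay above the others too, with 33.3 and 43.8 CPM, against 0.758, 1.17 and 2.75 CPM. On the lower side, the muscle chloride channel Clcn1 had 1.72 and 2.86 CPM, against 14.7, 18.3 and 35.8 CPM. The calcium channel subunit Cacna1s had 2.54 and 2.93 CPM, against 17.9, 21.5 and 27.95 CPM. Ces1d, a lipase, had 17.7 and 10.9 CPM, against 82.98, 118 and 162 CPM. These 7 genes were picked from those apart, so none had overlapping groups.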

How the data were processed

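RNA of 8 mouse hearts was sequenced from strand-specific poly(A) libraries, per the labels' protocols, of which one passage speaks of rat tissue while every sample is labelled mouse. The authors deposited 1 table with estimated counts, TPM and FPKM per gene, per the file headers. HISAT, Bowtie2 and build GRCm39 are named in the submitters' processing notes, which do not give their roles. The deposited FPKM values, the authors' group means and 8 columns of normalized counts per heart were not used. The estimated counts were rounded to whole numbers and fitted with edgeR 4.0.16 (quasi-likelihood, TMM scaling, robust, R 4.3.3) over 13562 genes that passed filterByExpr, with a minimum count of 10 and Postn left out. The deposited TPM values were used for shares between genes and, as log2(TPM + 1) in limma 3.58.1, as an alternative. DESeq2 1.42.0 was another. The labels do not say that the hearts of a group are separate litters or days, so p-values measure the spread between these samples. The edgeR script was tested on simulated data. Promoters came from a RefSeq table on GRCm38.p6, matched by NCBI gene number. The members and the 56 gene lists were chosen with earlier results of these data known. Genes were named by a rule: per list, up to 4 members apart with the largest differences in each direction or, where 0 were apart, up to 3 of the highest CPM; outside the lists, the 15 higher and 10 lower genes with the largest differences and at least 20 CPM; and the genes that passed the genotype test. Genes outside this rule, Dkk3 and most MHC class II genes among them, were named for their role or after their values were seen.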

Additional observations from a re-analysis of the deposited data

Results flagged for a closer look

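Among the 6 low-Postn hearts, a value was singled out where the gap between the highest or lowest heart and its nearest neighbour took up more of the range than Dixon's 95% limit allows. Chance alone does this in about 1 group in 20, and the values below share hearts and so are not independent. Most of them were the highest level and came from wild-type 6.

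For heart muscle and metabolism, wild-type 6 had 3254 CPM of Nppa, 972 CPM of Myl4, 401 CPM of Myh7, 31015 CPM of Myl2, 45342 CPM of Mb and 1837 CPM of Pgam2. Its summed level was 188857 CPM over nuclear genes of oxidative phosphorylation, 7179 CPM over skeletal muscle genes, 111 CPM over adipocyte markers and 12355 CPM over erythroid and platelet genes. It also had 475 CPM of Rpl3 and 621 CPM of Rpl3l.

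For matrix, signalling and stress genes, wild-type 6 had 97.3 CPM of Loxl1, 23.0 CPM of Timp1, 7.29 CPM of Comp, 133 CPM of Fstl1, 95.7 CPM of Dkk3, 41.6 CPM of Lgals3, 8.13 CPM of Ccl24, 213.5 CPM of Ccnd3, 21.4 CPM of Angptl4, 158 CPM of Pdia6, 3.36 CPM of Tubb3 and 0.981 CPM of Sprr1a. For Timp1, Angptl4, Lgals3, Sprr1a and Loxl1 it was still below both high-Postn hearts. Wild-type 5 had 124 CPM of Scn4b and 34.2 CPM of Smad3, knockout 4 had 3.98 CPM of Top2a and 17.6 CPM of Vcan, and knockout 3 had 99.95 CPM summed over neutrophil markers.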

How the results depend on the processing

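Of 300 genes apart that the naming rule or the text names between high- and low-Postn hearts, each kept its direction under every alternative that tested it, and 266 were still apart with total counts, 226 with TPM and between 288 and 300 when 1 heart was left out. Those genes were chosen as apart in these same data, so a kept direction was likely beforehand. The count of genes apart and higher was 863 where a mean of at least 10 CPM was required. The count apart and lower was 624 with total counts, 650 with that minimum and 257 with log2(TPM + 1) in limma. By adjusted p, the higher count was 1137 with the minimum, and the lower count was 493 with total counts, 628 with the minimum, 1765 with DESeq2 and 270 with TPM in limma. Leaving out 1 low-Postn heart gave lower counts by edgeR from 669 (without knockout 4) to 2004 (without wild-type 6). The filter by genotype group, chosen after seeing the data, gave 1524 higher and 998 lower genes apart. The genotype test passed 3 genes with the minimum, 20 with DESeq2, 3 in the 6 low-Postn hearts alone, and from 3 (without wild-type 2 or knockout 2) to 6 (without wild-type 6) when 1 heart was left out. For these counts the cause was not tested. Where TPM replaced counts, 41 of 143 genes apart in the text moved by more than 1.5 times in fold. Leaving out wild-type 2 did so for 16 and knockout 2 for 17, with no change of direction.

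A fit with the replicate number as a block could be made for genotype only, since number 2 is held by both high-Postn hearts. With the replicate block 180 genes passed, on 1 residual degree of freedom. Deviations from the group means had a Pearson r across genes of 0.908 for number 2 and 0.150 for number 4, and the labels do not say that numbers pair the hearts. Number 2 holds the hearts chosen by Postn, so its r follows in part from that choice. These values therefore cannot show whether numbers mark pairs. With 2 high-Postn hearts the number of hearts, more than depth, limits precision.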
